A study of Schizosaccharomyces pombe with 4 samples.

Results

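The genes described here encode the upstream part of the Sty1 stress pathway of the fission yeast Schizosaccharomyces pombe. They run from its histidine kinases down to the MAP kinase Sty1 itself, and include the response regulator and transcription factor Prr1. They were taken by name from the authors' table of gene expression, and all 10 members (mak1, mak2, mak3, mpr1, mcs4, prr1, wis4, win1, wis1 and sty1) were found among the 7092 genes listed. RNA was sequenced from 4 libraries in 2 groups, with 2 libraries each. The libraries labelled Atf1 came from cells of the genotype h90 ade6leu1 ura4 pcr1::ura4+ carrying the plasmid pREP41-Atf1, and the libraries labelled vector came from cells of that same genotype carrying pREP41 alone. All cells therefore share, per the labels, the replacement of pcr1 by ura4+ and a homothallic background, in which a culture can switch mating type. pREP41 drives its insert from a form of the nmt1 promoter, which thiamine represses. Per the labels' protocols, cells were kept at 30 °C with 20 µM thiamine overnight and then without thiamine for 24 h. The series compares expression with and without Atf1 over-expression in cells without pcr1. The labels leave unsaid whether libraries sharing a label are separate cultures, so any spread behind the p-values may be technical.

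In fission yeast, peroxide and other stresses reach Sty1 through a phosphorelay joined to a MAP kinase cascade. Histidine kinases pass a phosphate to the phosphotransfer protein Mpr1, which hands it to a response regulator. The response regulator Mcs4 is bound to the MAP kinase kinase kinases Wis4 and Win1, these phosphorylate the MAP kinase kinase Wis1, and Wis1 phosphorylates Sty1. Active Sty1 enters the nucleus and phosphorylates the bZIP transcription factor Atf1, whose usual partner is Pcr1. The cascade works by phosphorylation of proteins, which RNA levels do not measure.

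The values are the authors' FPKM (fragments per kilobase, scaled to sequencing depth), a level that can be compared between genes, with 1 pooled value per gene and group. No value per library was used here, so no spread between libraries, SD or test of its own can be given, and the depth is unknown. Calls rest on the q-value of the authors' Cuffdiff comparison, with a gene called at q under 0.05. Each difference is the log2(FPKM + 1) of the Atf1 label minus that of the vector label. On this scale the change of a weakly expressed gene comes out too small. Levels of atf1, pcr1 and ura4 go against the labels in all but 1 case. The plasmid insert gene atf1 was at 54.4 FPKM under the Atf1 label, against 60.9 FPKM under the vector label. The replaced gene pcr1 was at 66.4 and 35.8 FPKM in that order of labels. The marker ura4 was listed at 0 under the Atf1 label, against the genotype. Its 124.8 FPKM under the vector label does not go against it. Every difference below is thus between labelled libraries, not between known levels of Atf1.

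None of the 10 genes was called. Of 14 known targets of Sty1 or Prr1, 4 were called higher in the libraries labelled Atf1, against 1.82% of tested genes. Members and lists were chosen with earlier results of these data known. Of the 10, 3 had a positive difference (sty1, wis1 and mpr1) and 7 a negative one, running from -0.74 for mak3 to 0.78 for sty1. Positive differences were found in 2772 of 6219 tested genes and in 1984 of 4971 tested nuclear protein-coding genes. The authors' deposited table (Cuffdiff) calls 0 of the 10 at q under 0.05, against 1.95% of the 6219 tested genes, and 0 of the 10 had an unadjusted p under 0.05, against 10.8%. None was 2-fold apart in either direction, against 33.8% of tested genes. With equal FPKM totals in both groups 5 of the 10 were, and so were 51.5% of tested genes. The median difference of the 10 was -0.27, beside -0.11 over all tested genes and -0.22 over 4971 tested nuclear protein-coding genes. With no value per library, these counts do not show that the genes were at equal levels in both groups.

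**Figure D1:**
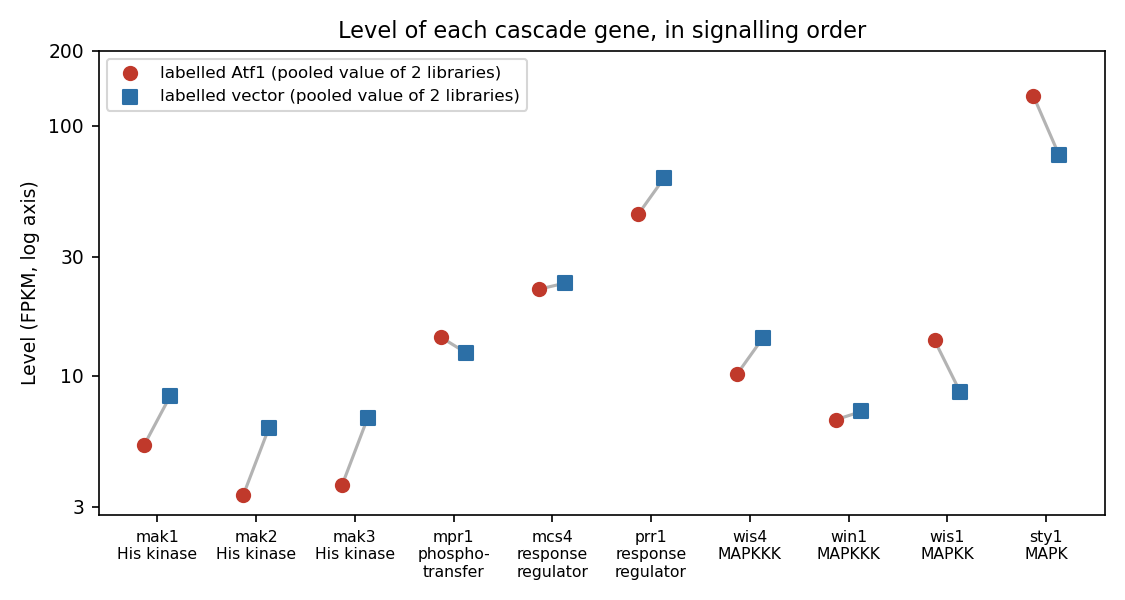
Level of each of the 10 cascade genes in FPKM (log axis), with the libraries labelled Atf1 as circles left of those labelled vector as squares; each symbol is 1 pooled value of 2 libraries, without an error bar, and the grey line joins both values of a gene. The 3 histidine kinase genes lie below 10 FPKM and lower under the Atf1 label, and sty1 lies at the top and higher under the Atf1 label.

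The levels of the 10 genes spanned a wide range and did not follow the order of signalling. In the libraries labelled Atf1 they ran from 3.32 FPKM (mak2) to 132 FPKM (sty1), a 39.7-fold range, and in those labelled vector from 6.18 FPKM (mak2) to 76.6 FPKM (sty1), a 12.4-fold range. The order from the top was sty1, prr1, mcs4 in both groups, and mak3 and mak2 stood last in both. Between them the order changed: under the Atf1 label it was mpr1, wis1, wis4, win1 and mak1, and under the vector label wis4, mpr1, wis1, mak1 and win1. Whether neighbours in either order differ beyond the spread between libraries cannot be said from pooled values. The RNA of the terminal kinase gene sty1 thus had the highest level of the cascade, and those of the peroxide sensor genes mak2 and mak3 the lowest, in both groups.

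The histidine kinase genes were lower in the libraries labelled Atf1, each of them without a call. The level of mak1 (SPAC1834.08, also called phk3; chromosome I 4709727-4715261) was 5.31 FPKM under the Atf1 label, against 8.29 FPKM under the vector label, a difference of -0.56, at q = 0.997 in the authors' deposited table. The level of mak2 (SPAC27E2.09, phk1; chromosome I 4027002-4035920) was 3.32 FPKM under the Atf1 label, against 6.18 FPKM under the vector label, a difference of -0.73, at q = 0.997 in the authors' deposited table. Its locus also holds rfc3, a replication factor gene on the opposite strand that overlaps mak2 by 193 bases in the RefSeq annotation and was at 10.01 FPKM under the Atf1 label, against 19.1 FPKM under the vector label. Mak2 and Mak3 are the histidine kinases known to sense peroxide and signal to Sty1. The level of mak3 (SPCC74.06, phk2; chromosome III 1940336-1947736) was 3.64 FPKM under the Atf1 label, against 6.78 FPKM under the vector label, a difference of -0.74. Its unadjusted p of 0.0872 was the lowest of the 10 genes in the authors' deposited table (q = 0.831). All 3 differences stayed negative under each of the 6 alternative pseudocounts and scalings.

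The protein annotation in the table gives these genes a shared structure. The table lists the phosphoacceptor domain of histidine kinases in 3 genes, and these are mak1, mak2 and mak3. It lists the receiver domain of response regulators in 5 genes, which are the same 3 kinases, mcs4 and prr1, and the histidine phosphotransfer domain in mpr1 alone. All genes of the table that carry 1 of these 3 phosphorelay domains are thus among the 10 described here. Mak2 and Mak3 also carry a protein kinase domain, which Mak1 does not in this annotation. Between these genes, the ratio of mak3 to mak2 was 1.10 in both groups. Such a ratio within a group does not change when each group is scaled by 1 factor, but quantile normalization can change it. The ratio of mak1 to mak3 was 1.46 under the Atf1 label and 1.22 under the vector label.

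The phosphotransfer protein gene mpr1 (SPBC725.02, spy1; chromosome II 1200564-1206773) was at 14.3 FPKM under the Atf1 label, against 12.3 FPKM under the vector label. Mpr1 is the only known link from the histidine kinases to the response regulators in this yeast. The difference was 0.20 at q = 0.997 in the authors' deposited table, and it turned negative when the groups were scaled to equal FPKM totals (-0.42) or equal protein-coding totals (-0.37). In the authors' table mpr1 shares its locus with SPBC725.01, an aminotransferase gene at 91.8 FPKM under the Atf1 label, against 79.8 FPKM under the vector label, so the value of mpr1 is uncertain. Both genes lie on the same strand and overlap by 86 bases in the RefSeq annotation. The next gene along the chromosome, SPBC725.03, was called by Cuffdiff in the authors' deposited table at q = 0.00809, at 210 FPKM under the Atf1 label, against 37.5 FPKM under the vector label.

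The response regulator genes differed in level but neither was called. The level of mcs4 (SPBC887.10; chromosome II 3557090-3559137), which encodes the regulator that binds the MAP kinase kinase kinases, was 22.3 FPKM under the Atf1 label, against 23.5 FPKM under the vector label. Its difference of -0.076 (q = 0.997 in the authors' deposited table) was 0.045 with median-of-ratios scaling and 0.048 with quantile normalization. The level of prr1 (SPAC8C9.14; chromosome I 3665912-3669087) was 44.3 FPKM under the Atf1 label, against 61.8 FPKM under the vector label, a difference of -0.47 at q = 0.997 in the authors' deposited table. Prr1 is a transcription factor with a DNA-binding domain of the heat shock factor type, and it acts on oxidative stress genes and on the mating regulator gene ste11. The ratio of mcs4 to prr1 was 0.502 under the Atf1 label and 0.380 under the vector label, so prr1 was the higher of the pair in both groups. The ratio of mcs4 to mpr1 was 1.56 under the Atf1 label and 1.90 under the vector label.

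Of the MAP kinase kinase kinase genes, wis4 had the higher level in both groups. The level of wis4 (SPAC9G1.02, also called wak1; chromosome I 1968434-1974092) was 10.2 FPKM under the Atf1 label, against 14.2 FPKM under the vector label, a difference of -0.44 at q = 0.997 in the authors' deposited table. The level of win1 (SPAC1006.09; chromosome I 5089815-5094848) was 6.67 FPKM under the Atf1 label, against 7.21 FPKM under the vector label, a difference of -0.097 at q = 0.997 in the authors' deposited table. Wis4 and Win1 act side by side on Wis1. The ratio of wis4 to win1 was 1.52 under the Atf1 label and 1.96 under the vector label. The difference of win1 was 0.014 with median-of-ratios scaling and 0.083 with quantile normalization, whereas that of wis4 stayed negative under every alternative pseudocount and scaling tried. The locus of wis4 also holds rpl3001, a ribosomal protein gene at 4397 FPKM under the Atf1 label, against 5543 FPKM under the vector label. In the RefSeq annotation, rpl3001 lies on the opposite strand and overlaps wis4 by 97 bases. The other gene of the locus, SPAC9G1.14, was at 2.84 FPKM under the Atf1 label, against 1.39 FPKM under the vector label. A stranded kit was used per the labels' protocols, but whether reads were counted by strand is not given in the sources used, so the value of wis4 is uncertain.

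Both kinases at the end of the cascade were higher in the libraries labelled Atf1, each without a call. The level of wis1 (SPBC409.07c, sty2; chromosome II 1143731-1146633), the MAP kinase kinase gene, was 13.9 FPKM under the Atf1 label, against 8.61 FPKM under the vector label. This is a 1.61-fold difference in FPKM, and a difference of 0.63 in log2(FPKM + 1) (q = 0.997 in the authors' deposited table). The level of sty1 (SPAC24B11.06c, spc1; chromosome I 206476-211275), the MAP kinase gene, was 132 FPKM under the Atf1 label, against 76.6 FPKM under the vector label. This is a 1.72-fold difference in FPKM, and a difference of 0.78 in log2(FPKM + 1) (q = 0.997 in the authors' deposited table). Both differences stayed positive under each alternative pseudocount and scaling, but with equal FPKM totals they were 0.023 for wis1 and 0.12 for sty1. The ratio of wis1 to sty1 was 0.105 under the Atf1 label and 0.112 under the vector label, so the RNA of sty1 exceeded that of wis1 by 9.53-fold and 8.90-fold. With quantile normalization the difference of wis1 (0.83) was above that of sty1 (0.43), the reverse of their order as deposited. Among 105 tested genes annotated with a protein kinase domain, sty1 ranked 3 by level under the Atf1 label and 4 under the vector label, while wis1 ranked 52 and 80.

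The RNA of sty1 is read from a locus with other transcripts. The noncoding RNA sty1-antisense-1 (SPNCRNA.622) runs on the opposite strand and overlaps 1362 of the 1661 bases of sty1 in the RefSeq annotation. It was at 25.7 FPKM under the Atf1 label, against 29.2 FPKM under the vector label, a difference of -0.18 at q = 0.997 in the authors' deposited table. The difference of the antisense RNA was thus negative where that of sty1 was positive, and whether it differed from that of sty1 was not tested. SPAC24B11.07c, in the same locus, was at 6.81 FPKM under the Atf1 label, against 3.96 FPKM under the vector label. The nearest gene on the other side, SPAC24B11.05, was at 41.6 FPKM under the Atf1 label, against 19.0 FPKM under the vector label, with an unadjusted p of 0.0313 and q = 0.546 in the authors' deposited table. Because mak2, mpr1, wis4 and sty1 share a locus with other genes in the authors' table, their values are uncertain, while the other 6 genes are alone in theirs.

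Across the table the differences varied with the level of the genes, and with genes binned by their mean level 7 of the 10 cascade genes lay inside the quartiles of their bin. By construction each bin has about as many genes inside its quartiles as outside, so this count does not set the cascade genes apart. Over tested protein-coding genes, the median difference was -0.27 at a mean level of 1 to 2 FPKM (84 genes), -0.39 at 2 to 4 FPKM (216 genes), -0.58 at 4 to 8 FPKM (566 genes), -0.50 at 8 to 16 FPKM (1054 genes), -0.35 at 16 to 32 FPKM (1061 genes), -0.12 at 32 to 64 FPKM (786 genes) and 0.12 at 64 to 128 FPKM (473 genes). At higher levels it was 0.32 at 128 to 256 FPKM (294 genes) and 0.64 from 256 FPKM (437 genes). The histidine kinase genes lie in the bin of 4 to 8 FPKM, whose quartiles are -0.94 and -0.025, and their differences fall between these. The differences of mcs4, prr1, wis4 and win1 also lie inside the quartiles of their bins. Those of mpr1, wis1 and sty1 lie above the upper quartile, by position and not by a test: wis1 stood 1.13 above the median of its bin, mpr1 0.70 and sty1 0.66. Both groups' values enter the mean level, and bins of 1 group's level, added after seeing the data, gave other medians. By the vector level the median was 0.59 at 1 to 2 FPKM, -0.085 at 2 to 4 FPKM and -0.37 at 4 to 8 FPKM. It was -0.43 at 8 to 16 and at 16 to 32 FPKM, -0.23 at 32 to 64 FPKM and -0.093 at 64 to 128 FPKM. Above that it was 0.16 at 128 to 256 FPKM and 0.47 from 256 FPKM. Like the medians by mean level, those by the vector level did not run one way with level, and the same 7 genes lay inside their quartiles. By the Atf1 level the median rose from each bin to the next, from -0.93 at 1 to 2 FPKM to 0.73 from 256 FPKM. With these bins 6 of the 10 lay inside: sty1 was then inside, mpr1, wis1 and win1 were above the upper quartile, and prr1 was below the lower. The part of this dependence on level in the differences of single genes was not tested.

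**Figure D2:**
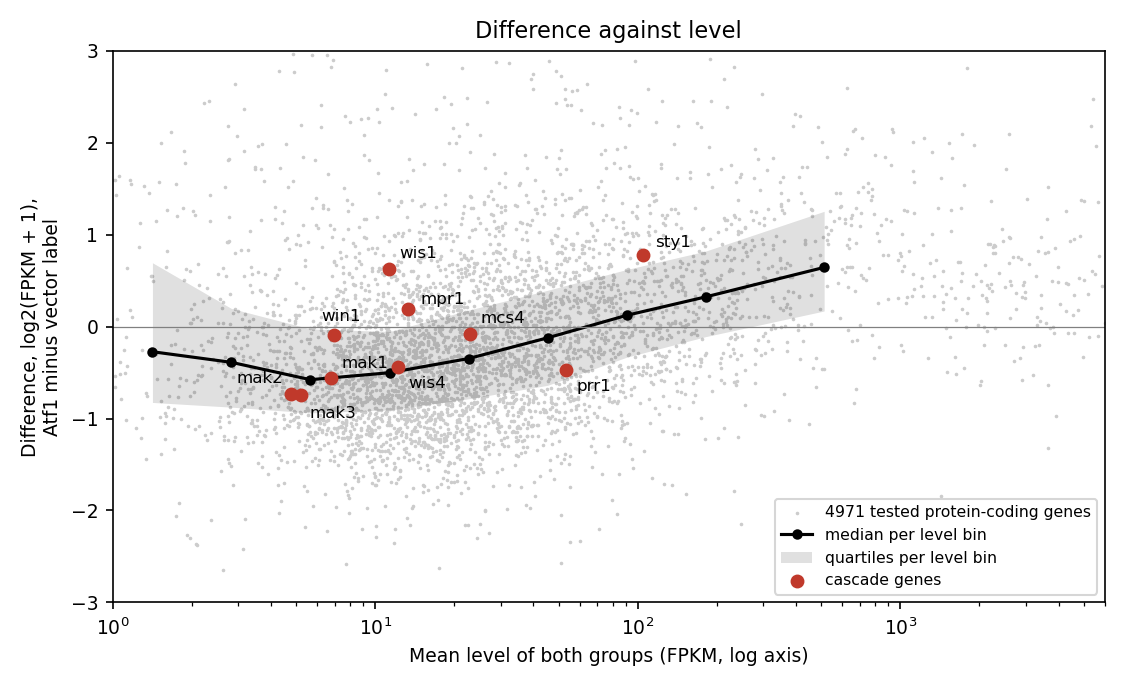
Difference between labels, in log2(FPKM + 1), against the mean level of both groups in FPKM (log axis) for tested protein-coding genes (grey), with the median and quartiles of each level bin in black and grey shading, and the 10 cascade genes in red; the last bin holds all genes from 256 FPKM, and 117 of 4971 genes lie outside the axes. The medians are negative at low levels and positive from 64 FPKM, and wis1, mpr1 and sty1 lie above the shading.

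The size and in 3 cases the sign of the differences depended on how the groups were scaled. FPKM summed to 1321551 under the Atf1 label and to 835070 under the vector label, and how the authors scaled the groups is not given in the sources used. The median difference over tested genes moved by -0.61 with equal FPKM totals and by 0.12 with median-of-ratios scaling. Relative to the protein-coding median of -0.22, as deposited, the differences of sty1 and wis1 were 0.99 and 0.84 higher, and that of mak3 was 0.53 lower. Of the 10 genes, 7 kept the sign of their difference under every setting tried, and mpr1, mcs4 and win1 did not.

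**Figure D3:**
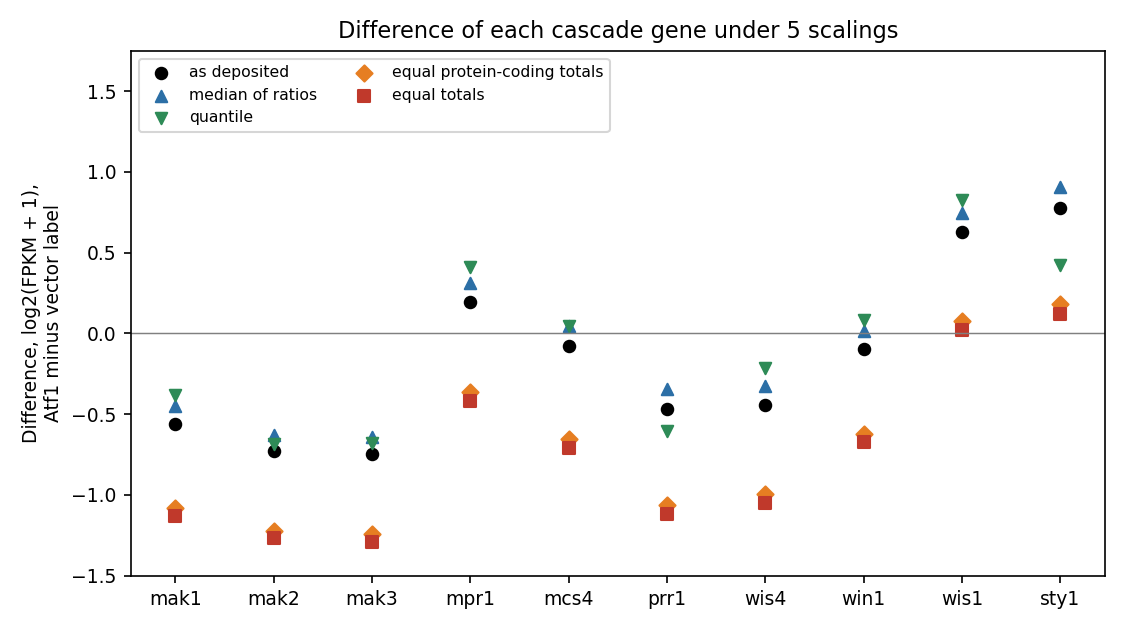
Difference between labels, in log2(FPKM + 1), of each of the 10 cascade genes under 5 scalings of the groups; each symbol is 1 difference of pooled values. With equal totals 8 of the 10 genes lie below 0, and only wis1 and sty1 stay above it, at 0.023 and 0.12.

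Further along the pathway, 4 of 14 genes regulated by Sty1 or Prr1 were called, and the other 10 were not. The list had 13 positive differences and a median of 1.54, beside -0.11 over all tested genes. Tested protein-coding genes of high mean level had higher medians, 0.32 at 128 to 256 FPKM and 0.64 from 256 FPKM. The list was not matched for level, and the part of level in its median was not tested. The authors' deposited table (Cuffdiff) calls 4 of them, all higher, where 1.82% of tested genes were called higher. The glutathione peroxidase gene gpx1 rose to 2360 FPKM under the Atf1 label, against 50.8 FPKM under the vector label, and lies in a locus of 3 genes. The metallothionein gene zym1 rose to 729 FPKM under the Atf1 label, against 42.4 FPKM under the vector label. The catalase gene ctt1, a target of Atf1 and Prr1, rose to 468 FPKM under the Atf1 label, against 43.9 FPKM under the vector label. The glycerol-3-phosphate dehydrogenase gene gpd1, which serves glycerol synthesis in osmotic stress, rose to 4072 FPKM under the Atf1 label, against 297 FPKM under the vector label. The mating regulator gene ste11 was at 28.9 FPKM under the Atf1 label, against 7.78 FPKM under the vector label (q = 0.0608 in the authors' deposited table). The list of targets was chosen with earlier results of these data known. Whether the targets differ from the cascade genes in their difference was not tested.

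Regulators of Sty1 and its effectors had a median difference between those of the cascade and of the target genes. Of 16 genes, 11 had a positive difference, the median was 0.60, and the authors' deposited table (Cuffdiff) calls 1, higher: csx1, for an RNA-binding protein that acts with Sty1 on atf1 RNA. It rose to 76.2 FPKM under the Atf1 label, against 22.5 FPKM under the vector label. Among all tested genes 1.82% were called higher, and 2772 of 6219 differences were positive. The tyrosine phosphatases that inactivate Sty1 were not called: pyp2 was at 45.7 FPKM under the Atf1 label, against 7.61 FPKM under the vector label (q = 0.180 in the authors' deposited table), in a locus of 2 genes. For pyp1 the levels were 31.5 FPKM under the Atf1 label, against 12.1 FPKM under the vector label (q = 0.281 in the authors' deposited table). The gene pyp2 is also in the list of target genes, so these lists are not separate.

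Proteins that bind or feed the cascade were not called in any tested case. Of the 6 genes listed, 5 were tested, with 3 positive differences and a median of 0.081. The share called among all tested genes was 1.95%. The peroxiredoxin gene tpx1, whose product passes the peroxide signal to Sty1, was at 12971 FPKM under the Atf1 label, against 3344 FPKM under the vector label (unadjusted p = 0.0373 and q = 0.591 in the authors' deposited table), in a locus of 5 genes. The gene of the Sty1-binding protein Sin1 was at 11.8 FPKM under the Atf1 label, against 25.7 FPKM under the vector label. The glycolytic enzyme Tdh1 binds Mcs4, but tdh1 was listed at 0 in both groups and carries the status for too many reads, so no value can be given.

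The kinases of the other MAP kinase cascades of this yeast had a narrower range of differences, a contrast that was not tested. In the list of 7 genes of the cell integrity pathway (pck2, mkh1, pek1 and pmk1) and the pheromone pathway (byr2, byr1 and spk1), 2 were positive and the median was -0.042. The authors' deposited table (Cuffdiff) calls 0 of these 7, against 1.95% of tested genes, and 0 had an unadjusted p under 0.05, against 10.8%. Their differences ran from -0.59 for pck2 to 0.11 for spk1, while those of the Sty1 cascade ran from -0.74 to 0.78. At the level of the MAP kinases, pmk1 was at 41.0 FPKM under the Atf1 label, against 40.6 FPKM under the vector label, and spk1 was at 29.2 and 27.0 FPKM in that order of labels, both below sty1 in each group. The kinase kinase kinase gene byr2 was at 21.8 FPKM under the Atf1 label, against 30.3 FPKM under the vector label.

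**Figure D4:**
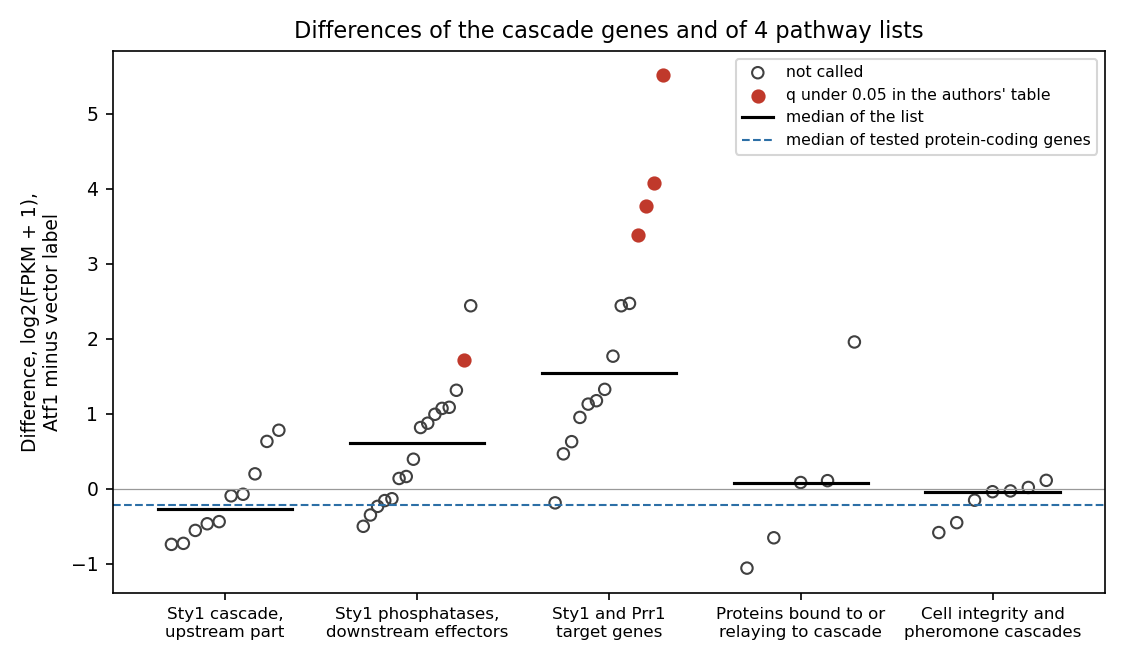
Difference between labels, in log2(FPKM + 1), of each tested gene in the cascade and in 4 pathway lists, sorted within each list; filled red circles are called at q under 0.05 in the authors' table, black bars are list medians and the dashed line is the median of tested protein-coding genes. All 10 cascade genes are open circles between -0.74 and 0.78, and 4 of the 14 target genes are filled, above 3.

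The promoters of the cascade genes were read for the site that Atf1 is known to bind, the cyclic AMP response element, searched as TGACGT on both strands. Promoters were taken from the RefSeq genome and annotation (ASM294v3) as 250 bases before to 50 bases from each gene's annotated start. The authors' build is ASM294v2, and 2104 of 2109 single-gene loci of their table have a start or an end identical to that of the RefSeq gene. The lower coordinate was identical for 1317 of them and the higher for 1254. Gene starts can thus differ between the annotations, and the windows and distances given here rest on RefSeq starts. Of the 10 cascade promoters 1 held the motif, that of mak3, against 5.91% of 5112 protein-coding promoters. The motif stood in 3 of 14 promoters of target genes (ctt1, gpd1 and ntp1) and in 3 of 16 of regulators and effectors (ptc1, srk1 and atf1). In the other lists it stood in 1 of 7 promoters of the other MAP kinase cascades (byr2) and in 0 of 6 of proteins that bind or feed the cascade. The shorter core TGACG, which the longer motif contains, stood in 4 of the 10 cascade promoters (mak2, mak3, mpr1 and sty1) and in 20.2% of all. A match describes these letters only and is not a measured binding site, and its absence from a window says nothing of the factor.

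Promoters of 4 genes are given as examples, 5′ to 3′ with each match to the motif in capitals, chosen after the matches were seen: mak3, the cascade gene with a match; sty1, without; and ctt1 and gpd1, the called targets with a match. They lie at chromosome III:1940065-1940364 (plus strand), chromosome I:208087-208386 (minus strand), chromosome III:58784-59083 (minus strand) and chromosome II:4035316-4035615 (plus strand) of ASM294v3.
mak3: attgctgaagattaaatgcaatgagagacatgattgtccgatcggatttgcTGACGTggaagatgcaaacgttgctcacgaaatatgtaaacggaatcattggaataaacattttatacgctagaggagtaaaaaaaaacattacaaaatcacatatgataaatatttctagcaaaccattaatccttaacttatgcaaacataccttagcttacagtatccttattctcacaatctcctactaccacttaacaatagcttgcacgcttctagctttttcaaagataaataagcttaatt
sty1: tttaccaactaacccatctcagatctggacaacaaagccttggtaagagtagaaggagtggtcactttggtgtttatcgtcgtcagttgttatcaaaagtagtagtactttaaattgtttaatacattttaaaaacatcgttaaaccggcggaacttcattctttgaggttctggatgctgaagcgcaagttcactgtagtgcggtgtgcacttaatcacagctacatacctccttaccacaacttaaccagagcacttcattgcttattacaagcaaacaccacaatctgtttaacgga
ctt1: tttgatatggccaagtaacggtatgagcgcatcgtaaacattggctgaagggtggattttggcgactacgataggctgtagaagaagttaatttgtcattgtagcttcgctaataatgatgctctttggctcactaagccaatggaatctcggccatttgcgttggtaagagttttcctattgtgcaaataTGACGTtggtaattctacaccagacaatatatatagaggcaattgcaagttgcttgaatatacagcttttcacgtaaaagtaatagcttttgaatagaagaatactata
gpd1: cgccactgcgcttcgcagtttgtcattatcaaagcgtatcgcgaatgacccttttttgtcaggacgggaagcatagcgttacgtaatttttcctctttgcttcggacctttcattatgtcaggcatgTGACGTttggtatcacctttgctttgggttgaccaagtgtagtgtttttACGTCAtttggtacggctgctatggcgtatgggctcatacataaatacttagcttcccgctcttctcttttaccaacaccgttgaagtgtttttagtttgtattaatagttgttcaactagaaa
The match in mak3 begins 199 bases before the start annotated in RefSeq. This is farther than the match in ctt1 at 59 bases and those in gpd1 at 123 and 74 bases. Under the Atf1 label mak3 was lower, without a call, while ctt1 and gpd1 were called higher. The other called targets, gpx1 and zym1, and the called effector gene csx1 had no match in this window. Matches nearer to the start than that of mak3 also stood in listed genes without a call. Among these were ntp1 at 69 bases (difference 0.63), ptc1 at 47 bases (0.81) and byr2 at 50 bases (-0.45). All matches in srk1 (difference 0.16) and atf1 (-0.16), also uncalled, were nearer too. Whether the distance of a match goes with the difference of its gene was not tested.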

How the data were processed

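Libraries were made from RNA taken with Trizol by a stranded mRNA kit, per the labels' protocols. The submitters' processing notes name HISAT2, Cuffdiff and the build ASM294v2, with no version or settings. The authors deposited FPKM with 1 pooled value per group and gene, identical in both tables for all 7092 genes, and the p-values and q-values of their Cuffdiff comparison. The lowest deposited p-value is 5e-05, and the number of tests behind the q-values is not stated. The authors' test statistic, a score, was deposited too and was not used. Protein lengths (other values, in residues) come from the annotation deposited with the table.

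Genes with status OK and a mean of at least 1 FPKM were tested (6219 of 6452 with status OK), and 4971 of these have a protein entry on a nuclear chromosome. All 10 members passed. Differences, medians, ratios within a group and level bins were computed from the deposited values with Python 3.11.15, numpy 2.4.6 and pandas 2.3.3, figures with matplotlib 3.10.9, and the scaling code was tested on simulated data. The planned fits of single libraries (limma, leaving out libraries, a replicate block) could not be made from pooled values. Alternatives were pseudocounts of 0.1 and 5, 4 other scalings, other filters, and a q-value under 0.01. Genes named were the 10 members and called genes of each list (otherwise the 2 lowest p-values). Also named were genes sharing a locus with or next to a member, and atf1, pcr1 and ura4. Others were chosen after their values were seen. Members and lists were chosen with earlier results of these data known.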

Additional observations from a re-analysis of the deposited data

How the results depend on the processing

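No paired analysis was possible because the tables hold 1 pooled value per group, and for the same reason leaving out libraries was not run. The count of 0 cascade genes called was the same under all 5 alternative filters and thresholds, where 6 of the 10 genes remain with a mean of at least 10 FPKM. None of these settings could have added a call, because the lowest unadjusted p of the 10 genes in the authors' Cuffdiff comparison was 0.0872. Over all genes, 113 were called higher and 8 lower, which became 72 and 3 at q under 0.01. The 5 called genes of the pathway lists became 3 at that threshold. With the p-values adjusted over the genes tested in the table, 137 were called higher and 12 lower, with 6 in the pathway lists. The median difference of the 10 genes (-0.27) was -0.29 and -0.20 with pseudocounts of 0.1 and 5, -0.083 with quantile normalization, -0.16 with median-of-ratios scaling, -0.88 with equal totals and -0.83 with equal protein-coding totals. Under both equal-total scalings 5 of the 10 genes were at least 2-fold apart, all lower, where 51.5% and 49.5% of tested genes were. The share of promoters with the motif was 40% of the 10 and 20.2% of all with the shorter core, which more windows hold by construction. Adding 1 FPKM to the ratios within groups changed no direction between the groups. Except where a limit is stricter, the cause was not tested. The depth is unknown, which limits the values of the weakly expressed kinases most.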

Other observations

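Genes next to the cascade genes, and long genes and protein kinase genes as classes, were compared after the values were seen. Of the 20 nearest genes on either side, 16 had status OK, with 7 positive and 9 negative differences, a median of -0.097 and a range from -1.36 (pus2, beside mcs4) to 2.46 (SPBC725.03, beside mpr1). The authors' deposited table (Cuffdiff) calls only the last of these 16, against 1.95% of tested genes. The gene pus2 was at 2.51 FPKM under the Atf1 label, against 8.04 FPKM under the vector label. The gene klp3, beside mak1, was at 7.63 FPKM under the Atf1 label, against 13.9 FPKM under the vector label, and adg3, beside mak3, was at 18.4 and 35.6 FPKM with those labels.

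The 5 cascade genes for proteins of at least 1400 residues (mak1, mak2, mak3, wis4 and win1) all had negative differences, with a median of -0.56, and the 5 for shorter proteins had a median of 0.20. Over tested protein-coding genes the medians were -0.41 for 123 genes of at least 1400 residues and -0.21 for 4848 shorter ones. Negative differences were found in 96 of those 123 genes and in 2891 of those 4848. Mak3, at 2344 residues, and Mak2, at 2310, are the longest of the 10 proteins and Mpr1, at 295, the shortest. The part of length in these differences was not tested. Over 105 tested genes with a protein kinase domain, 34 differences were positive and 71 negative, with a median of -0.28, and wis1 and sty1 ranked 12 and 9 from the highest.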
